A study of Mus musculus with 2 samples.

Results

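The genes described here encode the proteins of the cytosolic ribosome. They were chosen by name: every gene whose symbol starts with Rpl or Rps followed by a digit, together with Rpsa, Rplp0, Rplp1 and Rplp2, leaving out symbols with -ps and the Rps6k kinases. The rule found 86 of the 31053 genes in the table, 52 with large-subunit symbols (Rpl) and 34 with small-subunit symbols (Rps). They were measured by single-cell RNA-seq in the corneal epithelium of mice of the genotype CycB1-GFP, whose cycling cells carry green fluorescent protein (GFP) through a Cyclin B1 reporter. The epithelium was loosened overnight in Dispase, dissociated in trypsin and stained with DAPI, and live GFP-positive cells were sorted and captured with the 10x Genomics 3' v3 kit. The study forms 1 group of 2 libraries, all cells carry the reporter, and there is no unsorted or GFP-negative reference. The labels give neither the age, sex and strain background of the mice nor whether the replicates are separate animals, so the spread between libraries may be technical.

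A cytosolic ribosome joins a small subunit, which reads the messenger RNA, and a large subunit, which forms peptide bonds. Nearly every protein occurs once in each ribosome, and mammalian cells make them from a set of genes that are transcribed strongly in growing cells. Most of these messenger RNAs begin with a C followed by a run of pyrimidines, the 5' terminal oligopyrimidine or TOP motif, through which mTOR signalling controls their translation. Basal cells of the cornea and of the limbus, its stem cell border zone, are the dividing cells of this epithelium. Krt12 is the keratin of corneal cells, and Krt15 is highest in limbal and basal cells.

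The start sites of members that carry the results below are shown first, as context for how alike or different the genes are. Each line gives the 10 bases before and the 20 bases from the RefSeq start (GRCm38.p6), with the longest unbroken run of C and T in capitals. The first 5 genes are the members with the largest decreases in cells rich in mitotic RNA. The next 4 are members at either end of the keratin comparison, followed by the paralog pair Rps27 and Rps27rt and by Rpl26, which of the members averaging at least 20 CPM differed most between the libraries.
Rps6: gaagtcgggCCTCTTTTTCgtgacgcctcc
Rpl11: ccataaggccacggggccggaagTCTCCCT
Rpl31: tcctcgCCTCCCCgtgacccggaagttgta
Rpl38: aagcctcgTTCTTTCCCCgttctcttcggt
Rpl36al: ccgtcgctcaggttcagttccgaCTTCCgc
Rpl13: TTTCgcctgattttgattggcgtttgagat
Rps10: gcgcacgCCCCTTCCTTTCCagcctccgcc
Rpl22l1: gcgcaagcccgTTCTCTTCCCacggctgca
Rps19: aaTCTCgcgagactcgacgcccgacttgtg
Rps27: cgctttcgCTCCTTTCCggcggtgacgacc
Rps27rt: ttaTCCCTTgctttccggcggtgacgacct
Rpl26: ggcaaCTTacagaaccggaagtcgcgtgta
These windows lie at chr4:86857348-86857377 (minus strand) for Rps6, at chr11:114668570-114668599 (plus strand) for Rpl38 and at chr8:123102340-123102369 (plus strand) for Rpl13. In each window the last 20 bases run from the RefSeq start into the first exon. The GENCODE gene extends further upstream for some of them, among them Rps6, Rpl38, Rpl11, Rps19 and Rpl22l1, whose windows lie wholly inside it. Rps6, Rpl38 and Rps10 have pyrimidine runs of 10 to 13 bases across the annotated start, whereas the longest run of Rpl13 and of Rps19 is 4 bases. Rps27 and Rps27rt share an unbroken stretch of 19 bases in these windows. The annotated start can lie away from the base where transcription begins, so a short run here does not show that the RNA lacks the motif.

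A start was listed for 66 members. The longest pyrimidine run of these windows had a median of 6 bases over the members and of 4 bases over all 27025 genes with a listed start. The letters CTTTC occurred on the strand matching the RNA in 15 of the 66 member windows (22.7%) and in 3.66% of all windows. On the opposite strand they occurred in 4.55% of member windows and 3.54% of all windows. The letters CCGGAAG, searched on both strands in the 300 bases around the start, occurred in 25 members (37.9%) and in 9.12% of all genes. A match is a description of letters and not a binding site.

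Of 6752 barcodes, 6188 were kept as cells, having 500 or more genes detected and a mitochondrial share below 20% of UMIs (unique molecular identifiers, each counting 1 captured RNA molecule), 3187 in library 1 and 3001 in library 2. They held 18773893 and 17796678 UMIs, at medians of 5571 and 5886 UMIs a cell. The 2 libraries are told apart by the barcode suffix, which the labels do not tie to a replicate number, and 5 barcode sequences occurred in both. The corneal markers Krt12 (11115 and 12597 UMIs per 1000000, CPM) and Pax6 (511.9 and 437.7 CPM) were high. Of the 6 keratocyte markers, Kera, Col1a1, Col1a2 and Ptgds had no UMI, and all 6 together, with Lum and Dcn, summed to 0.266 and 0.112 CPM. The 6 immune markers summed to 11.7 and 36.0 CPM, and the 6 conjunctival markers to 381 and 828 CPM, and their part in any difference between the libraries was not tested.

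Ribosomal protein genes supplied more than 1 in 5 of the RNA molecules counted. In library 1 they made up 23.4% of all UMIs (exact 95% binomial interval 23.4 to 23.5%), and in library 2 they made up 22.1% (22.0 to 22.1%). These intervals, like the others below, cover counting error only. The median cell held 23.6% in library 1, with quartiles of 21.1 and 25.6%, and 22.2% in library 2, with quartiles of 19.8 and 24.6%. Single cells ranged from 1.21 to 39.9% and from 1.60 to 38.0%. The distribution had a long tail toward low shares, with 180 cells of library 1 and 112 of library 2 under 10% and no gap at that value. Large-subunit genes gave 13.2 and 12.4% of all UMIs and small-subunit genes 10.3 and 9.66%, and the ratio of large to small was 1.28 in both libraries.

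**Figure D1:**
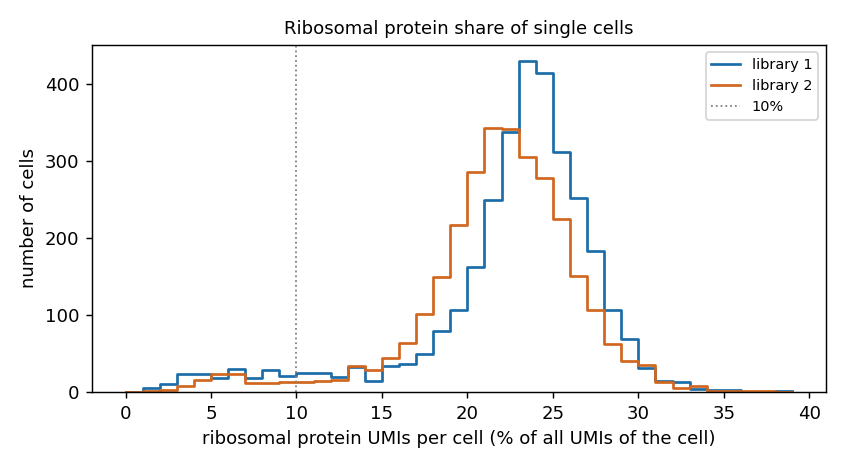
Number of cells (vertical axis) by the percent of a cell's UMIs that came from ribosomal protein genes (horizontal axis, 1% steps), for library 1 and library 2. Both libraries peak between 20 and 25%, library 1 higher than library 2, and a low tail of 180 and 112 cells lies to the left of the dotted line at 10%.

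Most members were abundant and present in nearly all cells. UMIs were found for 84 members, 83 averaged at least 20 CPM, and 73 at least 1000 CPM. In both libraries 74 members had a UMI in over 90% of the cells. Rpl13 (ENSMUSG00000000740, chr8:123102350-123105244 on the plus strand, GRCm38), a large-subunit protein, was the highest, with 9657 CPM in library 1 and 10009 CPM in library 2, or 4.32% of the members' UMIs. The stalk genes Rplp1 (5942 and 5692 CPM) and Rplp0 (5754 and 5621 CPM) came next, and the small-subunit gene Rps20 (5139 and 5174 CPM) was also among the 10 highest. Together the 10 highest members gave 24.4% of the members' UMIs. The libraries ranked the members almost alike (Spearman's rho 0.98 across 84 genes, which are not independent replicates). The 3' kit counts molecules near the end of the transcript, so these levels are not divided by gene length, and UMIs shared with processed copies of a gene make the level of any single member uncertain.

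The paralogs lay below their parent genes, some of them far below. Rpl3l and Rpl10l, known from muscle and testis, had no UMI, which allows up to 0.160 CPM in library 1 and 0.169 CPM in library 2. Rpl39l, also known from testis, had 18 and 3 UMIs (0.959 and 0.169 CPM), against 2931 and 2737 CPM for Rpl39. Rpl22l1 stood at 654.2 and 588.8 CPM and its parent Rpl22 at 1619 and 1505 CPM. Rps27l, a target of p53, stood at 427 and 389.8 CPM, and Rps27rt at 38.0 and 32.7 CPM, against 1352 and 1366 CPM for Rps27. Rpl36al, a copy of the X-linked Rpl36a, stood at 260.3 and 176 CPM and Rpl36a at 1418 and 1328 CPM. Rpl7l1 was at 86.5 and 79.9 CPM and Rpl7 at 2935 and 2941 CPM. Rps19bp1, which the rule takes in by spelling although it encodes a nucleolar protein and no ribosomal subunit, was at 52.6 and 45.7 CPM. How reads from near-identical copies such as Rps27 and Rps27rt were assigned was not tested, so the levels of such copies are uncertain.

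The first comparison asked whether ribosomal protein RNA differs across the range of mitotic RNA in these sorted cells. A cell's mitotic RNA was the share of its UMIs from 40 genes of G2 and mitosis, such as Ccnb1, Plk1 and Cenpe, none of which is a member. Each library was divided into tertiles, 3 equal parts of its cells, with boundaries at 0.597 and 1.16% in library 1 and 0.651 and 1.251% in library 2. Tertiles are ranges and not cell types, and 612 and 551 cells lay within 10% of a boundary. Ribosomal protein genes took a smaller share where mitotic RNA was higher. In library 1 their share of UMIs was 24.3, 23.5 and 22.5% in the bottom, middle and top tertile, and in library 2 it was 22.8, 22.3 and 21.1%. The top tertile differed from the bottom by -1.80 percentage points in library 1 and -1.72 in library 2. With the mitotic UMIs taken out of the total, the differences were -1.51 and -1.43 points.

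The order bottom, middle, top also held inside each keratin class, described below. In library 1 the difference between top and bottom tertile was -2.22 points in Krt15-dominant cells, -1.47 in mixed cells and -1.83 in Krt12-dominant cells. In library 2 it was -1.74, -2.47 and -1.60 points. All 6 differences had the same sign, but with 2 libraries an exact two-sided permutation test that exchanges top and bottom within each library cannot go below p = 0.5. A share of the total also cannot tell a lower number of ribosomal protein molecules per cell from a higher number of other molecules. The median cell held 1403, 1408 and 1285 members' UMIs in the bottom, middle and top tertile of library 1 and 1308, 1401 and 1275 in library 2. The median total was 5375, 5763 and 5574 UMIs in library 1 and 5451, 6107 and 5949 in library 2.

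**Figure D2:**
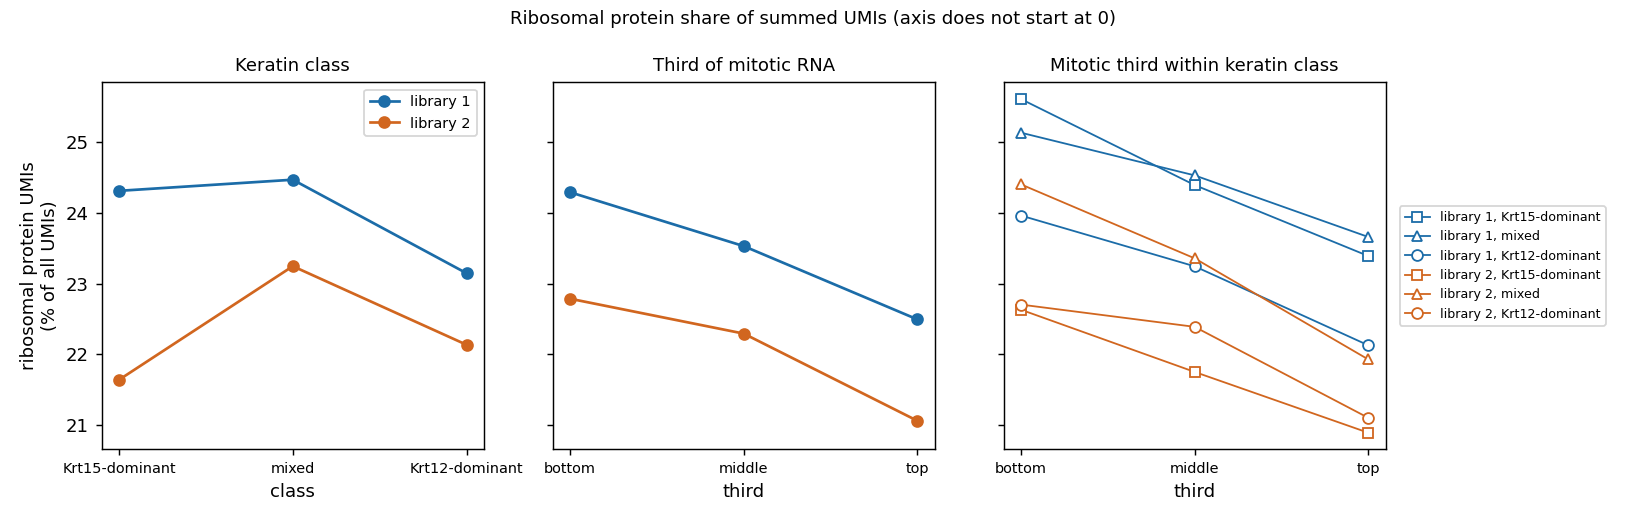
Percent of summed UMIs from ribosomal protein genes (vertical axis, which does not start at 0) by keratin class, by tertile of mitotic RNA, and by tertile within each keratin class, 1 line per library or per library and class. The share is lower at each step from bottom to top tertile along all lines of the middle and right panels, while Krt15-dominant and Krt12-dominant cells are in opposite order in the 2 libraries.

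Gene by gene, the decrease with mitotic RNA was small and spread over the members. In edgeR's quasi-likelihood test on UMIs summed per library and tertile, with library as a block, 73 of the 83 members tested (88%) fell in the top tertile and 0 rose (Benjamini-Hochberg adjusted p under 0.05). Of all 11447 genes tested, 15.2% fell and 12.9% rose. Among the 72 other genes of at least 1000 CPM, 38.9% fell and 11.1% rose. The median log2 fold change was -0.20 over the members tested and -0.0036 over all genes tested. It was -0.20 for the 49 large-subunit genes and -0.19 for the 34 small-subunit genes. The log2 ratio of plain CPM, top over bottom, was below 0 in both libraries for 80 of the 83 members, with a median of -0.11 in each library. The share of all genes below 0 in both libraries was not counted.

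The number of members called, 73 in the main fit, depended on how the libraries were modelled. With total UMIs in place of TMM scaling (trimmed mean of M values), 44 members fell and the median of the members was -0.11, while the median of all genes moved from -0.0036 to 0.08. That scaling also raised the share of higher calls among all genes called from 45.8 to 60.0%. With DESeq2 12 members fell (50 at an unadjusted p under 0.05). Without the library block 0 members were called by edgeR (1 at an unadjusted p under 0.05), although all 83 had a negative sign. With 2 equal parts of the cells in place of 3, 27 members fell. Calls among all genes were not counted for DESeq2 or for the 2 equal parts.

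Rps6, the small-subunit protein phosphorylated by S6 kinase downstream of mTOR, was among the members that fell most. In library 1 it stood at 2622, 2424 and 2205 CPM in the bottom, middle and top tertile. In library 2 it stood at 2401, 2284 and 2113 CPM. The level dropped at each step in both libraries, and all 3 sums of library 2 lay below the corresponding sums of library 1. Its log2 fold change between top and bottom was -0.30 (SE 0.043, edgeR adjusted p = 0.000104). Without TMM it was -0.22 (edgeR adjusted p = 0.0013).

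Rpl11, part of the 5S particle that binds the p53 regulator Mdm2, was at 3570, 3364 and 3009 CPM in library 1. In library 2 it was at 3256, 3105 and 2895 CPM. It fell in the same stepwise order in both libraries, by 0.29 on the log2 scale (SE 0.041, edgeR adjusted p = 9.08e-05). Without TMM the log2 fold change of Rpl11 was -0.21 (edgeR adjusted p = 0.00125). Rpl38, a large-subunit protein known for its part in translating Hox transcripts, was at 1243, 1174 and 1059 CPM in library 1. In library 2 it was at 991, 949 and 878 CPM. Its log2 fold change was -0.28 (SE 0.050, edgeR adjusted p = 0.00067), and the long pyrimidine run of its start was not shared by Rpl11.

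Rpl31, a large-subunit protein, fell from 1130 to 959.7 CPM in library 1 and from 851 to 752.6 CPM in library 2 (log2 fold change -0.29, edgeR adjusted p = 0.000766). Rpl36al had the lowest log2 fold change of the members tested, -0.35 (SE 0.072, edgeR adjusted p = 0.00197), from 284 to 234 CPM in library 1 and from 190.1 to 158.8 CPM in library 2. Its parent Rpl36a moved less, from 1444 to 1397 CPM and from 1367 to 1310 CPM (log2 fold change -0.14, edgeR adjusted p = 0.039). The plain log2 ratios of Rpl36a were only -0.047 and -0.062. Its call was lost without TMM (log2 fold change -0.055, edgeR adjusted p = 0.365) and with DESeq2 (adjusted p = 0.464). Whether these paralogs differ from each other was not tested. Rpl13, the most abundant member, fell from 10012 to 9315 CPM and from 10488 to 9283 CPM (log2 fold change -0.22, edgeR adjusted p = 6.84e-05).

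In 10 of the 83 members the difference did not pass the test. Rps4x, encoded on the X chromosome, was at 3967, 3944 and 3963 CPM in library 1 and 4139, 4228 and 4088 CPM in library 2, and did not pass the test (log2 fold change -0.09, edgeR adjusted p = 0.078). Rps20, also a small-subunit protein, was slightly higher in the top tertile of library 1 and slightly lower in that of library 2 and did not pass (edgeR adjusted p = 0.083). Rps19, the small-subunit protein most often mutated in Diamond-Blackfan anaemia, fell by 0.13 on the log2 scale (edgeR adjusted p = 0.018). Its plain log2 ratios were only -0.066 and -0.042, and without TMM it did not pass (edgeR adjusted p = 0.283). Rps27l was at 430 and 415.4 CPM in the bottom and top tertile of library 1 and at 390.8 CPM in both of library 2 (edgeR adjusted p = 0.249). Rpl7l1 (edgeR adjusted p = 0.45), Rps27rt (0.326), Rpl22l1 (0.084) and Rps19bp1 (0.069) did not pass either, the last from 57.6 to 45.6 CPM in library 1 and from 46.0 to 44.7 CPM in library 2. Others that did not pass were Rpl29, with plain log2 ratios of -0.29 and 0.10 in libraries 1 and 2, and Rpl13a, with -0.23 and -0.01.

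The stalk, the part of the large subunit that recruits translation factors, followed the same direction. Rplp0 (log2 fold change -0.16, edgeR adjusted p = 0.0029), Rplp1 (-0.17, 0.0015) and Rplp2 (-0.15, 0.010) all fell. Their plain log2 ratios in libraries 1 and 2 were smaller. They were -0.042 and -0.106 for Rplp0, -0.082 and -0.091 for Rplp1, and -0.072 and -0.071 for Rplp2. Rpsa, a small-subunit protein also known as a laminin receptor, fell from 4413 to 4061 CPM in library 1 and from 4117 to 3871 CPM in library 2 (log2 fold change -0.19, edgeR adjusted p = 0.0015). Of the parent genes of paralogs, Rpl3, Rpl7, Rpl10, Rpl22, Rpl39 and Rps27 fell, with log2 fold changes from -0.22 to -0.15.

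Ribosomal proteins that the naming rule misses were looked at too. Fau, whose product is cut to release a small-subunit protein, fell by 0.20 on the log2 scale (edgeR adjusted p = 0.00197). Rack1, a signalling scaffold on the small subunit, fell by 0.23 (edgeR adjusted p = 0.000826).

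Other genes of ribosome production and translation were counted in the same fit. Of 35 ribosome biogenesis genes, such as Ncl, Fbl and Nop56, 25 fell and 0 rose, with a median log2 fold change of -0.48. Of 19 translation elongation and other TOP genes, such as Eef1a1 and Tpt1, 9 fell and 1 rose. Their summed level was 23092 and 22524 CPM, and of the 72 genes outside the members with at least 1000 CPM, 38.9% fell and 11.1% rose. Of 14 genes of RNA polymerase I, which transcribes ribosomal RNA, 2 fell and 1 rose. Of 77 mitochondrial ribosomal protein genes, whose products form the separate ribosome of mitochondria, 14 fell and 4 rose, with a median of -0.08. Over all genes tested 15.2% fell and 12.9% rose, so the RNA polymerase I and mitochondrial ribosomal counts of decreases lay near the background. Cell cycle phase moved with the tertiles: of 30 S phase genes, 29 fell in the top tertile, with a median of -1.86, and their part in the members' decrease was not tested.

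**Figure D3:**
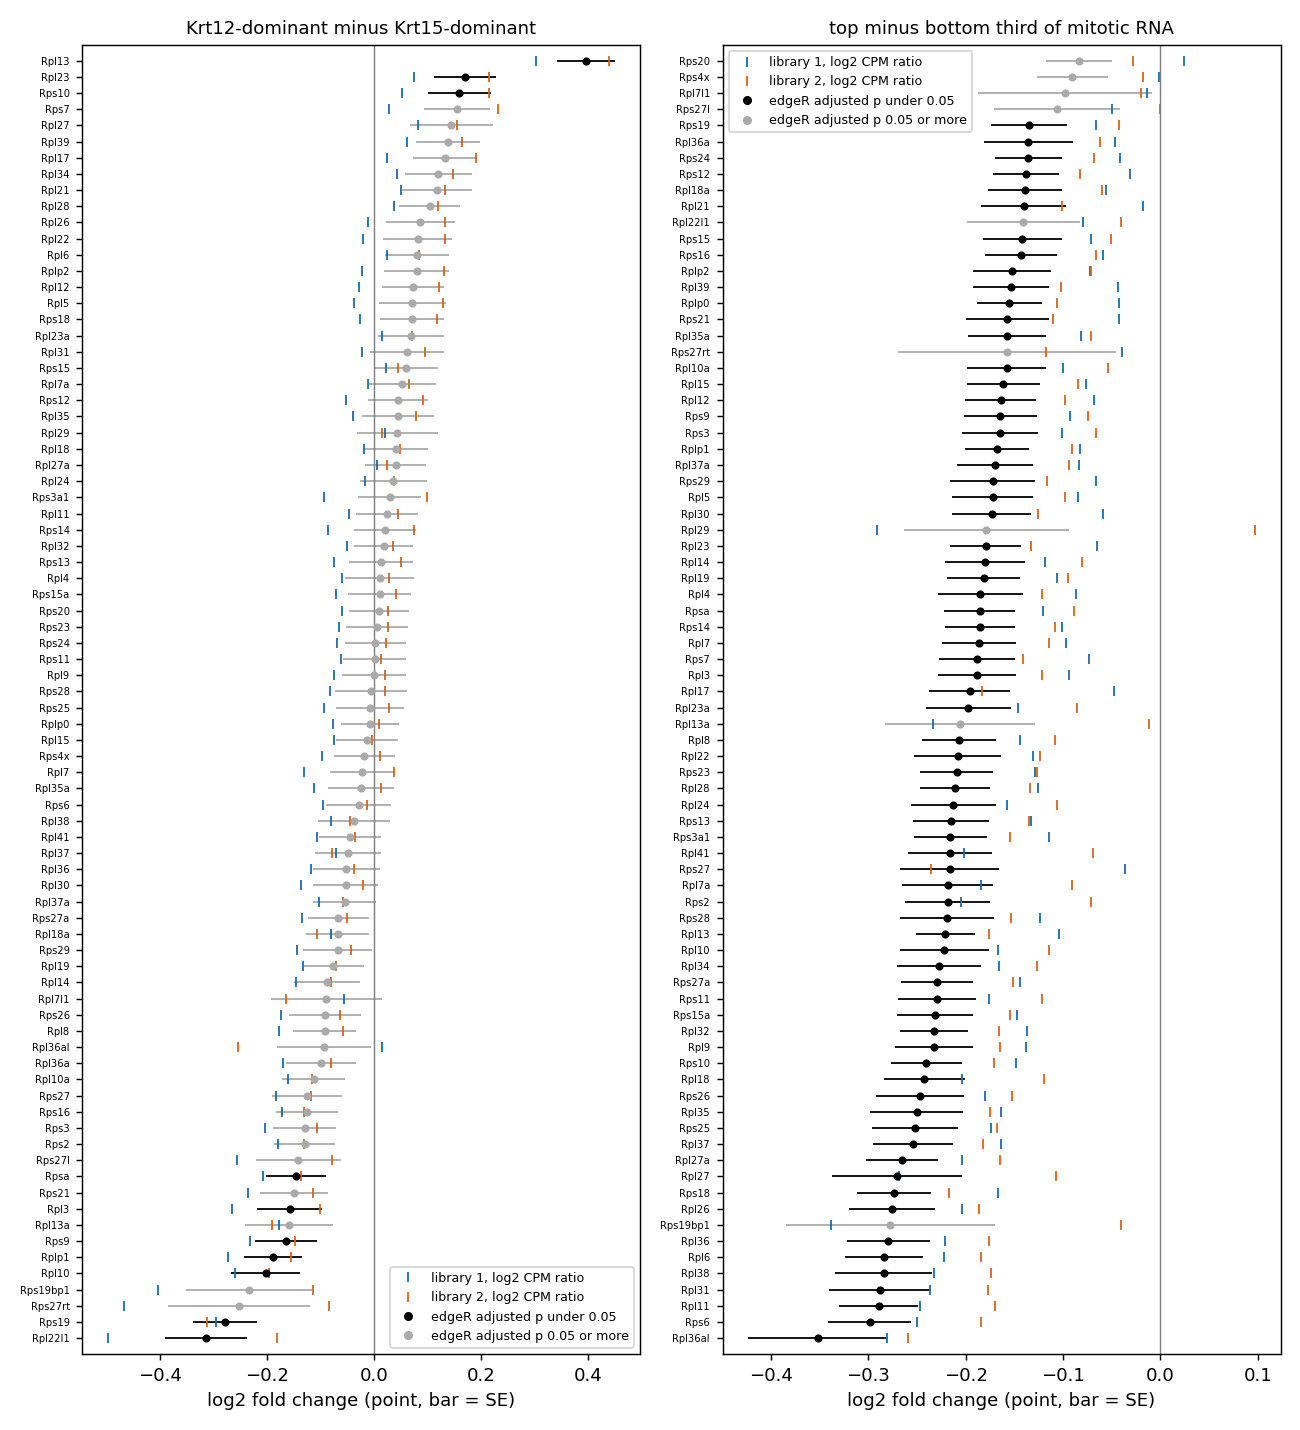
Log2 fold change of 80 of the 83 members tested, Krt12-dominant minus Krt15-dominant on the left and top minus bottom tertile of mitotic RNA on the right, sorted by value. Points with bars are edgeR estimates with SE, black where the adjusted p is under 0.05, and ticks are the plain CPM ratios of the 2 libraries. In the right panel all points lie below 0 and to the left of most ticks, since TMM scaling moves them, whereas in the left panel they lie on both sides of 0.

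The second comparison set cells with mostly Krt12 against cells with mostly Krt15. A cell's Krt12 share was its Krt12 UMIs over the sum of Krt12 and Krt15 UMIs, taken where that sum was at least 5. Krt15-dominant cells, with a share under 0.4, numbered 663 in library 1 and 959 in library 2. Krt12-dominant cells, with a share above 0.8, numbered 2304 and 1821, mixed cells 161 and 164, and 116 cells had too few keratin UMIs. Over both libraries, 65 cells lay within 0.05 of 0.4 and 151 within 0.05 of 0.8. These are many beside the mixed class, so its make-up depends on the boundaries.

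For the ribosomal protein genes as a whole, the 2 libraries went in opposite directions. In library 1 they made up 24.3% of UMIs in Krt15-dominant cells, 24.5% in mixed cells and 23.1% in Krt12-dominant cells. In library 2 the values were 21.6, 23.2 and 22.1%. Krt12-dominant minus Krt15-dominant was therefore -1.16 percentage points in library 1 and 0.494 in library 2. Within tertiles of mitotic RNA the difference was -1.64, -1.15 and -1.26 points in library 1 and 0.072, 0.636 and 0.210 points in library 2, bottom to top. Mitochondrial UMIs moved with the classes, at 3.54 and 2.66% of UMIs in Krt15-dominant and Krt12-dominant cells of library 1 and 4.63 and 3.34% in library 2. With mitochondrial UMIs taken out of the total the differences were -1.42 and 0.209 points. With all UMIs counted, mixed cells had the highest share in both libraries. Without mitochondrial UMIs, mixed and Krt15-dominant cells of library 1 were nearly level, at 25.16 and 25.20%.

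Single members moved both ways. In edgeR's quasi-likelihood test with library as a block, 4 of 83 members tested were higher in Krt12-dominant cells (4.82%, against 15.6% of all 11140 genes tested) and 7 were lower (8.43%, against 16.9%). The median log2 fold change was -0.00096 over the members and 0.0055 over all genes. Both shares lay below those of all genes. Without the library block 0 members were called (2 at an unadjusted p under 0.05), and DESeq2 called 1, Rpl13, as higher. A fit with keratin class and mitotic tertile together called 10 higher and 23 lower. Calls among all genes were not counted for that fit or for DESeq2, so these counts have no background.

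Rpl13 rose most. In library 1 it was at 8177 CPM in Krt15-dominant, 9217 CPM in mixed and 10090 CPM in Krt12-dominant cells. In library 2 it was at 8001, 10662 and 10838 CPM. Krt15-dominant cells were lowest in both libraries, and the log2 fold change was 0.40 (SE 0.054, edgeR adjusted p = 1.14e-06). Rpl23, which like Rpl11 can bind Mdm2, went from 4723 to 4975 CPM in library 1 and from 4395 to 5097 CPM in library 2 (log2 fold change 0.17, edgeR adjusted p = 0.025). Rps10, whose start has the longest pyrimidine run shown, went from 3893 to 4037 CPM and from 3426 to 3977 CPM (log2 fold change 0.16, edgeR adjusted p = 0.037). Without TMM neither Rpl23 nor Rps10 passed (edgeR adjusted p = 0.090 and 0.122), nor with boundaries of 0.3 and 0.9 (0.057 and 0.074). With cells thinned to 2000 UMIs Rps10 did not pass (edgeR adjusted p = 0.111). For Rpl23 and Rps10 the plain ratio was small in library 1 and larger in library 2. Rps7 had the same pattern and did not pass (log2 fold change 0.15, edgeR adjusted p = 0.053).

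Rpl22l1, the paralog of Rpl22, had the lowest log2 fold change. It stood at 841, 763.5 and 595.9 CPM in Krt15-dominant, mixed and Krt12-dominant cells of library 1. In library 2 it stood at 638, 635 and 562.6 CPM. It was highest in Krt15-dominant cells of both libraries, and the log2 fold change was -0.31 (SE 0.077, edgeR adjusted p = 0.00181). Its parent Rpl22 was at 1632, 1709 and 1608 CPM and at 1407, 1585 and 1541 CPM and did not pass (log2 fold change 0.08, edgeR adjusted p = 0.375). The difference between the paralogs was not tested.

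Rps19 fell in Krt12-dominant cells by nearly the same amount in both libraries. It stood at 3454, 3129 and 2813 CPM in library 1 and at 3482, 3376 and 2804 CPM in library 2, in the order Krt15-dominant, mixed, Krt12-dominant. The log2 fold change was -0.28 (SE 0.060, edgeR adjusted p = 0.000465). Rpl10, an X-linked protein near the catalytic centre, went from 1760 to 1469 CPM and from 1729 to 1508 CPM (log2 fold change -0.20, edgeR adjusted p = 0.014). Of the stalk, Rplp1 fell, from 6823 to 5649 CPM and from 6065 to 5449 CPM (log2 fold change -0.19, edgeR adjusted p = 0.0077). Rplp0 and Rplp2 did not pass (log2 fold change -0.0079 and 0.08, edgeR adjusted p = 0.936 and 0.351). The other decreases were those of Rps9 (-0.16), Rpl3 (-0.16) and Rpsa (-0.15), with edgeR adjusted p-values of 0.027, 0.048 and 0.045.

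Of the low paralogs, Rps27rt (log2 fold change -0.25, edgeR adjusted p = 0.154), Rps27l (-0.14, 0.185), Rpl36al (-0.09, 0.464) and Rpl7l1 (-0.09, 0.569) did not pass, nor did Rps19bp1 (-0.23, 0.138). Fau (-0.05, 0.582) and Rack1 (0.07, 0.377) did not pass either. In the same edgeR fit, 6 of 35 ribosome biogenesis genes fell and 1 rose in Krt12-dominant cells. Of the 19 elongation and TOP genes 3 rose and 2 fell, of the 14 RNA polymerase I genes 1 rose and 0 fell, and of the 77 mitochondrial ribosomal protein genes 4 rose and 10 fell. Over all genes tested 15.6% rose and 16.9% fell, so these decreases were near or below the background.

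Whether the difference with mitotic RNA itself differs between Krt12-dominant and Krt15-dominant cells was tested as an interaction on sums per library, keratin class and tertile. By edgeR 0 of 83 members passed (0 at an unadjusted p under 0.05), and the smallest adjusted p was 0.892. DESeq2 also called 0 (0 at an unadjusted p under 0.05). Of all 10118 genes tested, 0.0593% were called higher and 0.0791% lower. Member interaction terms ran from -0.07 to 0.35 on the log2 scale with a median of -0.0011.

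The 2 libraries are samples of the same group, so their difference is a spread and was not tested. Of 83 members averaging at least 20 CPM, 66 were lower in library 2 (79.5%), against 40% of all 5804 genes at that level and 41.7% of the 72 other genes of at least 1000 CPM. The median log2 ratio, library 2 over library 1, was -0.10 over the members and 0.05 over all genes. By keratin class, 81, 63 and 67 of 83 members were lower in library 2 among Krt15-dominant, mixed and Krt12-dominant cells, with medians of -0.17, -0.10 and -0.07. The matching shares of all genes within each class were not counted. A 1.5-fold difference was passed by 1 member on the lower side (1.2%, against 1.96% of all genes) and by 0 on the higher side (against 3.43% of all genes). Library 1 was at least 25% above the level of library 2 for 9 members (10.8%, against 6.46% of all genes), and library 2 was that far above library 1 for 0 (against 12.3%).

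That member was Rpl26, a large-subunit protein near the exit tunnel that is known to bind p53 messenger RNA. Its level was 2085 CPM for library 1 but 1278 CPM for library 2 (log2 ratio -0.71, counting interval -0.73 to -0.68). The log2 ratio was -0.80 in Krt15-dominant, -0.79 in mixed and -0.66 in Krt12-dominant cells. In each library Rpl26 levels differed far less between keratin classes, at 2091, 2156 and 2076 CPM in library 1 and 1200.1, 1250 and 1315 CPM in library 2. Rpl36al (log2 ratio -0.57), Rpl13a (-0.46), Rps18 (-0.43) and Rps2 (-0.42) came next. Rps18 was at 3612 and 2681 CPM and Rps2 at 4290.5 and 3213 CPM. Toward the other end stood Rpl17 (0.08), Rps4x (0.07), Rps7 (0.05) and Rpl13 (0.05), so the most abundant member was among the few that were higher in library 2.

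**Figure D4:**
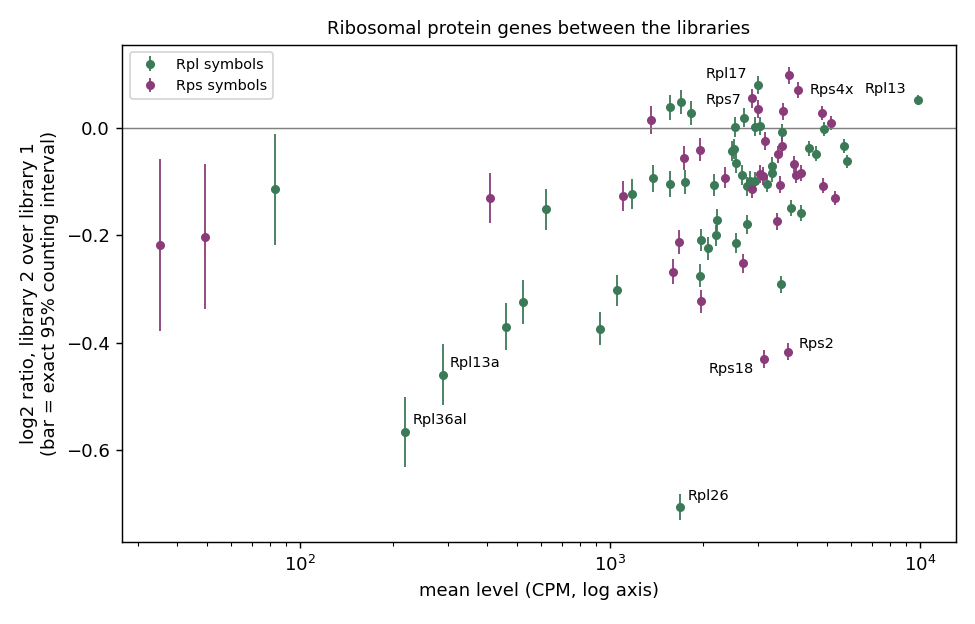
Log2 ratio of CPM, library 2 over library 1, against the mean level (CPM, log axis) for the 83 members averaging at least 20 CPM, coloured by subunit symbol, with exact 95% counting intervals. Most points lie below 0 near a median of -0.10, and Rpl26 lies lowest at -0.71.

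The share also moved with the depth and the mitochondrial content of cells. From the lowest to the highest tertile of total UMIs it was 21.7, 24.2 and 23.5% in library 1 and 21.0, 23.1 and 21.7% in library 2. From the lowest to the highest tertile of mitochondrial share it was 23.8, 24.1 and 21.7% in library 1 and 21.7, 23.1 and 21.0% in library 2. The mitotic tertiles differed little in mitochondrial share, at 2.82, 2.94 and 2.81% in library 1 and 3.799, 3.74 and 3.71% in library 2. With each cell thinned to 2000 UMIs, which left 2862 and 2664 cells, top minus bottom tertile of mitotic RNA was -1.99 points in library 1 and -1.78 in library 2.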

How the data were processed

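The deposited table held whole-number UMI counts per gene and barcode, made by the authors; per the submitters' processing notes, Cell Ranger 3.1.0, Seurat 5.0.0 and the mouse build GRCm38 (mm10) were used. Annotation, cell calling, strand setting and whether depth was equalised between the libraries are, in the sources used here, not given. The members, gene lists and comparisons were chosen with earlier results of these data known.

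Cells with at least 500 genes and under 20% mitochondrial UMIs were kept (475 barcodes had fewer genes and 311 a higher share). Doublets were not called, and leaving out the 3% of cells with most UMIs was an alternative. Counts were summed per library and class into 6 sums and tested with edgeR 4.0.16 in R 4.3.3 (filterByExpr, TMM, robust quasi-likelihood test, 2 residual degrees of freedom). Library was a block because all sums of a library come from the same sample. The interaction used 18 sums. P-values were adjusted by Benjamini-Hochberg over all genes tested and called under 0.05. The other tool tried was DESeq2 1.42.0. The fits were also run on simulated data with larger changes than those of the members and no gene differing between libraries. That run does not bear on calls of the members' size. Shares have exact (Clopper-Pearson) 95% intervals.

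Members were named by rule: in each test the 5 highest and 5 lowest log2 fold changes of equal sign in both libraries and at 20 CPM or more, the 5 highest and lowest ratios between the libraries, all paralogs with their parents, Rps19bp1, the stalk genes, Rpsa, Fau and Rack1. A few genes that this rule names are not reported here. Rps20, Rps9 and Rpl29 were named after their values were seen. Start sequences came from RefSeq (GRCm38.p6), with 66 of 86 members matched by symbol. Gene positions came from GENCODE (GRCm38), which gave 86 of 86.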

Additional observations from a re-analysis of the deposited data

Results flagged for a closer look

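The 9 ribosomal pseudogene entries with -ps symbols lay outside the members and were not used in any comparison. UMIs were found for 8 of them, and together they reached 356 CPM in library 1 and 360.1 CPM in library 2, above the limit that a count of 0 allows. Rps12-ps3 was the highest, with 115 and 118 CPM, and Rpl36-ps4 had no UMI. How many of these UMIs came from the parent genes was not tested.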

How the results depend on the processing

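Fewer cells, other scalings and another tool were tried, and 2 alternatives (cells of at least 3000 UMIs, and cells with at least 10% ribosomal protein UMIs) were chosen after seeing the data. The mean over both libraries of the mitotic share difference, -1.76 points, became -1.92 without the 3% of cells with most UMIs, -1.89 after thinning, -1.91 with 10 mitotic genes in place of 40, -1.22 with 2 equal parts in place of 3, -1.65 in Krt12-dominant cells, -2.06 in cells of at least 10% ribosomal protein UMIs and -1.83 without mitochondrial UMIs. The 73 members that fell with mitotic RNA became 44 without TMM, 12 with DESeq2, 27 with 2 equal parts and 0 with no replicate block, and between 68 and 80 under the other alternatives. The 4 members higher in Krt12-dominant cells became 2 without TMM, 1 with DESeq2, 0 with no replicate block, 10 in the joint fit, 7 in cells of at least 3000 UMIs and 2 with boundaries of 0.3 and 0.9. The 7 lower members became 0 with DESeq2, 0 with no replicate block, 23 in the joint fit, and 4 each after thinning, in cells of at least 3000 UMIs, in cells of at least 10% ribosomal protein UMIs and with at least 10 keratin UMIs. Past 1.5-fold between libraries, 1 lower member became 2 in Krt12-dominant cells, 2 with TMM scaling and 9 where library 1 need only be 25% above library 2. The causes of these shifts were not tested. For both tests, calls among all genes were counted only in the main fits, without TMM and with no replicate block. Leaving out each library gave a range of 22.1 to 23.4% for the share, -1.16 to 0.494 points for the keratin difference and -1.80 to -1.72 points for the mitotic difference, with no test. Of the named members' values under the alternatives, 18 lost their call in the keratin comparison and 18 in the mitotic comparison, and 0 reversed sign. A call was gained by 8 values in the keratin and 3 in the mitotic comparison. With a library left out, 3 keratin and 19 mitotic values moved by at least the SD between libraries. Those values are plain CPM ratios without TMM. Leaving out a library leaves no replicate for a test, and depth limits the rarer members: the SE of the mitotic log2 fold change was 0.11 for Rps27rt and 0.030 for Rpl13.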

Other observations

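Sorting the same cells by S phase RNA, a split chosen after seeing the data, gave a higher share of ribosomal protein UMIs where S phase RNA was higher. From the bottom to the top tertile of 30 S phase genes it was 22.1, 23.5 and 24.7% in library 1 and 20.2, 22.2 and 23.9% in library 2. Mitotic RNA moved with this split, at 1.28, 0.962 and 0.521% of UMIs in library 1 and 1.24, 1.08 and 0.637% in library 2. Across cells of 1 library, which share depth and a common total, Spearman's rho of the ribosomal protein share was 0.34 and 0.36 with the S phase share and -0.25 and -0.26 with the mitotic share.

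The 180 and 112 cells with under 10% ribosomal protein UMIs had a median of 1388 and 1664 UMIs, and 9.69 and 7.77% of their UMIs were mitochondrial, against 2.75 and 3.69% in the other cells. They were set apart by their ribosomal protein share, so the following levels are descriptions. Among the genes with the largest fold over the other cells, named after their values were seen, Psca was at 508 CPM against 3.41 CPM in the other cells of library 1 and at 4045 against 20.8 CPM in library 2. Asprv1, a skin aspartic protease, was at 898 against 7.09 CPM and at 6302 against 52.8 CPM. Muc4, a membrane mucin, was at 329.7 against 11.4 CPM and at 1342 against 28.8 CPM, and Krt13 at 1554 against 113 CPM and at 2354 against 164 CPM. Gm42418, a transcript that overlaps ribosomal RNA sequence, was at 125908 against 6301 CPM in library 1 and at 26960 against 6544 CPM in library 2. Depth and mitochondrial content differ between these cells and the rest, and their part in these levels was not tested.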
